A study of Caenorhabditis elegans with 8 samples.

Results

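Wnt signalling genes of the nematode Caenorhabditis elegans were followed in RNA recovered with the double-stranded RNA binding protein ADR-1 and in the source lysates. The 10 genes were chosen by name for their place in the pathway, with earlier results of these data known: the 5 Wnt ligands cwn-1, cwn-2, egl-20, lin-44 and mom-2, the 3 Dishevelled genes dsh-1, dsh-2 and mig-5, the glycogen synthase kinase 3 gene gsk-3 and the β-catenin gene bar-1. All 10 were found among the 46916 genes of the deposited table, and all 10 passed the filter on low values that left 13276 genes for testing. The lysates of animals without adr-2 held less gsk-3 and less mom-2 RNA than those of the control, while none of the 10 passed the test between the immunoprecipitates of the 2 strains.

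Wnt ligands are secreted glycoproteins that bind Frizzled and related receptors on a responding cell. In the canonical branch, Dishevelled relays the signal and restrains a cytoplasmic complex that holds the kinase GSK-3, casein kinase 1, Axin and APC, which otherwise marks β-catenin for destruction. In the worm, Wnts are known for directing neuroblast and axon migration, the fate of vulval precursor cells and the polarity of dividing cells, and several of them are made in graded patterns along the body of the young larva.

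RNA immunoprecipitation followed by sequencing (RIP-seq) was performed on first-stage (L1) larvae that had hatched overnight in buffer and were crosslinked with ultraviolet light. Both strains lacked their own adr-1 through the tm668 deletion and carried blmEx20, a transgene array that expresses 3×FLAG-tagged ADR-1, together with a GFP marker, from the neuronal rab-3 promoter. HAH25 kept adr-2, which encodes the deaminase that edits adenosine to inosine, and is called the control here, whereas HAH26 also carried the adr-2(ok735) deletion and is called adr-2(-). Poly(A)-selected RNA was sequenced from the anti-FLAG immunoprecipitate (IP) and from the lysate of whole larvae (input, also called the lysate). There were 2 biological replicates of each, which gave 8 libraries in 4 groups of 2. No IP came from animals without tagged ADR-1, so RNA bound to ADR-1 and RNA recovered without it cannot be told apart.

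The values are normalised read counts, that is, reads per gene divided by a size factor of the library. Inputs held between 2595323 and 2969937 reads and IPs between 20950841 and 79185013. After division by the size factors, 1 read was worth 2.63 and 3.01 units in control lysates and 6.40 and 8.91 units in adr-2(-) lysates. Depth was alike, at 2969937 and 2939870 reads in control inputs and 2816378 and 2595323 in adr-2(-) inputs. Their normalised totals were 8933509 and 7746403 units against 18034438 and 23114768. The adr-2(-) inputs thus carried the fewest reads behind each value, from 1 to 107 for the 10 genes. Summed over fixed marker lists, 5 intestinal genes stood at 67710 to 78134 units in control lysates and 180845 to 200802 in adr-2(-) lysates, 4 germ line genes at 1536 to 1546 and 487 to 721, and 10 neuronal genes at 6070 to 6245 and 7261 to 7437. None of these markers was at 0 in all 8 libraries. Their part in the results below was not tested. In 222 rows of the table, none of them of the 10 genes, the mean of the 8 values differed from the mean that the authors deposited, and 203 of these hold 0 for both control IPs. Results are therefore also given without these mismatched rows where that changes them.

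The study edited dsh-2 and designed primers for dsh-2 and cwn-1, and these sequences mark the stretches of both genes through which it followed them. All lie on chromosome II of WBcel235 (ce11), and each matched the genome at a single place. The guide sits in coding exon 8 of dsh-2 at chrII:5078792-5078811. The table of oligonucleotides lists it as read on the minus strand, where no NGG follows it. It is printed here as the plus-strand reading, which the 3 bases in capitals, an NGG protospacer adjacent motif, follow.
dsh-2 guide: ccagctgttggcggttgtggTGG
The dsh-2 primers lie in coding exons 2 (5080637 to 5080666, minus strand) and 3 (5080453 to 5080482, plus strand), and those of cwn-1 in coding exons 1 (133475 to 133504, minus strand) and 2 (132759 to 132788, plus strand). Both pairs therefore span an intron.
dsh-2 forward primer: caagtattattgcatcgcgctggatcctga
dsh-2 reverse primer: gctggtgtcagagtgcacagatccctcgac
cwn-1 forward primer: cactcgggcttgctgccaaccgatttgaca
cwn-1 reverse primer: catgagcagcgagagatcccgaacgaacac

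The first question was whether the pathway was expressed alike in the lysates of both strains. Of the 10 genes, 2 were lower in adr-2(-) lysates and 0 were higher by limma at an adjusted p under 0.05, against 9.37% of all genes tested that were called lower and 5.03% called higher (7.93% and 4.56% without the mismatched rows, where the same 2 genes were called). The median log2 change of the 10 was -0.66, beside 0.01 over all genes tested. At an unadjusted p under 0.05 from limma, 3 of the 10 were lower and 0 higher, beside 2440 lower and 1989 higher of all 13276 genes tested. In bulk lysates, fewer cells of a type and less RNA per cell cannot be told apart.

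gsk-3 (WBGene00001746, on the plus strand of chromosome I from 12819216 to 12825602), the kinase at the centre of the destruction complex, stood at 794 and 793 units in control lysates and at 141 and 116 in adr-2(-) lysates. The 2 groups lay far apart and each was tight, although the adr-2(-) values rest on 22 reads (95% exact Poisson interval 13.8 to 33.3) and 13 reads (6.92 to 22.2), against 264 and 301 in the control. Such intervals cover counting error only. The log2 change was -2.63 (SE 0.36, 95% interval -3.46 to -1.80, adjusted p = 0.00838 from limma), a 6.17-fold lower level. In the IPs, the same gene stood at 1371 and 860 units in the control and 1095 and 767 in adr-2(-), and these groups overlapped, with a log2 change of -0.24 (SE 0.36, 95% interval -1.07 to 0.59, adjusted p = 0.982 from limma). gsk-3 had the highest level per kilobase of exon of the 10 genes in control lysates, at 365 units per kb, and ranked 6 by this measure in adr-2(-) lysates, at 59.1 units per kb.

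mom-2 (WBGene00003395, chromosome V, 8355988 to 8358185, plus strand), the Wnt ligand known for polarising the mother cell of the endoderm precursor in the early embryo, showed the largest change of the 10 genes in the inputs. It stood at 508 and 532 units in control lysates and at 76.8 and 53.4 in adr-2(-) lysates, the latter from 12 and 6 reads. The log2 change was -3.0 (SE 0.55, 95% interval -4.27 to -1.74, adjusted p = 0.0136 from limma), an 8.01-fold lower level. The IPs did not separate the strains: they stood at 184 and 575 units in the control and 240 and 163 in adr-2(-), and the lower of the control IPs lay between the adr-2(-) IPs. The 4 germ line markers, whose sums are given above, also stood lower in adr-2(-) lysates, with 3 of the 4 called lower and a median log2 change of -2.64.

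**Figure D1:**
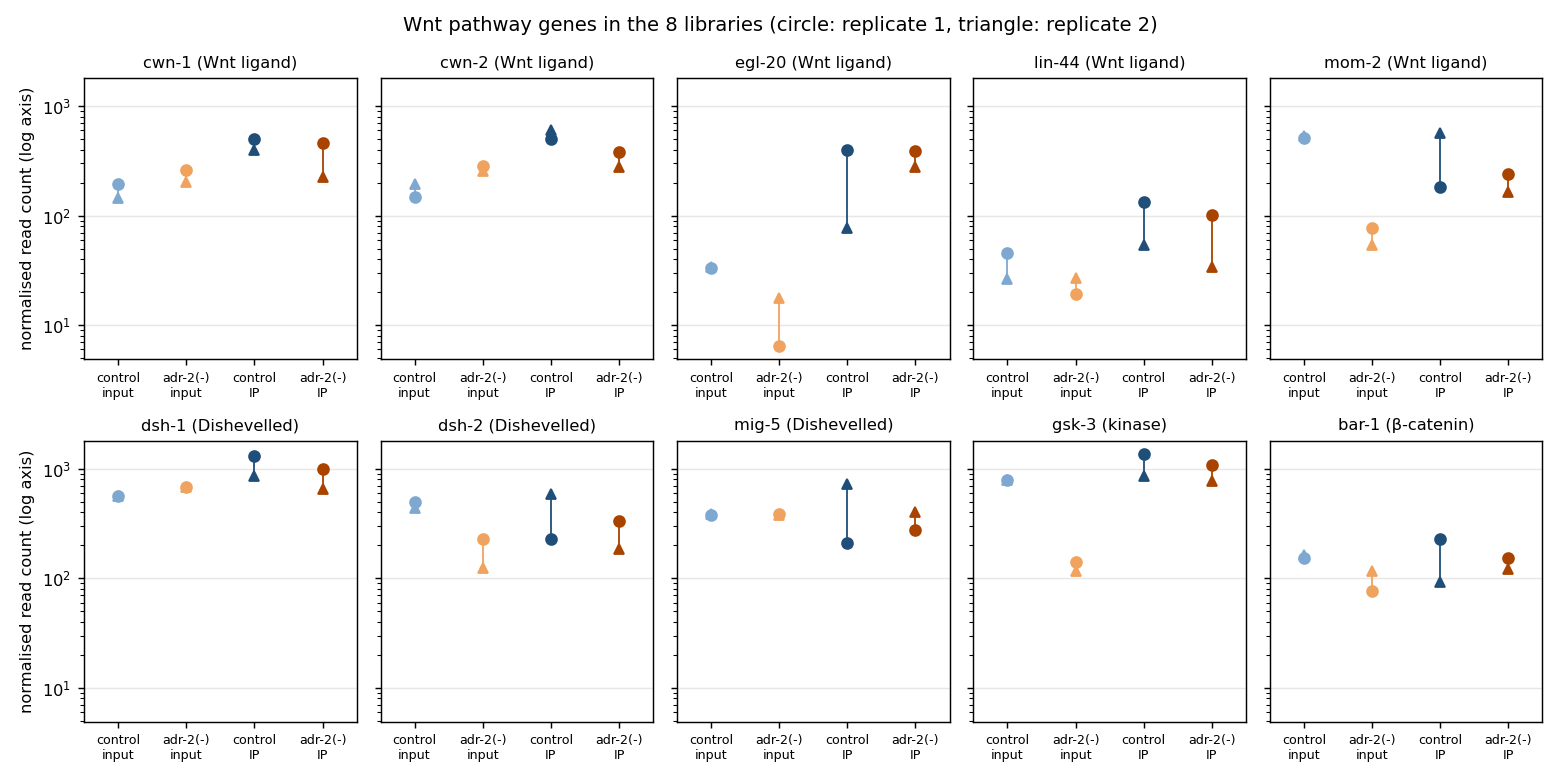
Normalised read counts of the 10 Wnt pathway genes on a log axis, with replicate 1 as a circle and replicate 2 as a triangle in each of the 4 groups, and a line that joins the 2 replicates. The adr-2(-) inputs of gsk-3 (141 and 116) and mom-2 (76.8 and 53.4) sit well below the control inputs, whereas their IPs overlap.

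The other 4 ligands did not pass the test in the inputs. egl-20 (WBGene00001188, chromosome IV, 9812357 to 9815532, minus strand), which is made in the tail and guides the migration of the Q neuroblasts, had 33.1 and 34.2 units in control lysates from 11 and 13 reads, and 6.40 and 17.8 in adr-2(-) lysates from 1 and 2 reads. From the pooled reads, the control inputs held 3.02 times as much (95% exact counting interval 0.916 to 15.6), so that no difference was detectable at this depth (log2 change -1.55, adjusted p = 0.210 from limma). lin-44 (WBGene00003029, chromosome I, 4126056 to 4129310, plus strand), which is made in the tail tip and orients the cells in front of it, had 45.1 and 26.4 units in control lysates and 19.2 and 26.7 in adr-2(-) lysates, with 3 reads in each of the latter, and the groups overlapped. cwn-1 (WBGene00000857, chromosome II, 130983 to 133598, minus strand), a ligand of posterior cells and muscle, had 196 and 145 units in control lysates and 263 and 205 in adr-2(-) lysates. cwn-2 (WBGene00000858, chromosome IV, 10067816 to 10070251, plus strand), which acts in the placement of anterior neurons and the nerve ring, had 147 and 195 against 282 and 258. In cwn-1 and cwn-2 the adr-2(-) values were the higher ones without overlap, with log2 changes of 0.46 (adjusted p = 0.487 from limma) and 0.67 (adjusted p = 0.225).

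The 3 Dishevelled genes, which encode the scaffold proteins that relay the Wnt signal, differed among themselves. dsh-2 (WBGene00001102, chromosome II, 5078233 to 5081174, minus strand) stood at 493 and 443 units in control lysates and at 231 and 125 in adr-2(-) lysates, with no overlap. Its log2 change of -1.46 (SE 0.55, 95% interval -2.71 to -0.20) had an adjusted p of 0.106 from limma and did not pass. dsh-1 (WBGene00001101, chromosome II, 5214400 to 5225384, minus strand) stood at 562 and 564 against 685 and 677, a log2 change of 0.27 (95% interval -0.54 to 1.08). mig-5 (WBGene00003241, chromosome II, 8182323 to 8185023, minus strand) stood at 379 and 390 against 391 and 383, with overlap and a log2 change of 0.01 (95% interval -1.24 to 1.25). bar-1 (WBGene00000238, chromosome X, 7166005 to 7170625, minus strand), the β-catenin of the canonical branch, stood at 153 and 163 in control lysates and 76.8 and 116 in adr-2(-) lysates, a log2 change of -0.74 (adjusted p = 0.346).

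The direction in 4 of these genes depended on the scaling. When every library was rescaled to the same total, the median log2 change of all genes in the inputs moved from 0.01 to -1.25, and the changes of cwn-1, cwn-2, dsh-1 and mig-5 turned to -0.83, -0.62, -1.02 and -1.28. Relative to that median, gsk-3 changed by -2.64 under the deposited scaling and by -2.66 under the same total, and mom-2 by -3.02 and -3.03. When each library was left out in turn, the log2 change ranged from -2.77 to -2.49 in gsk-3 and from -3.26 to -2.74 in mom-2. The 2 calls were lost only in fits without an input, which leave 1 library in an input group. Neither gene was called without control input replicate 1 or 2, or without adr-2(-) input replicate 2. Without adr-2(-) input replicate 1, mom-2 was not called.

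**Figure D2:**
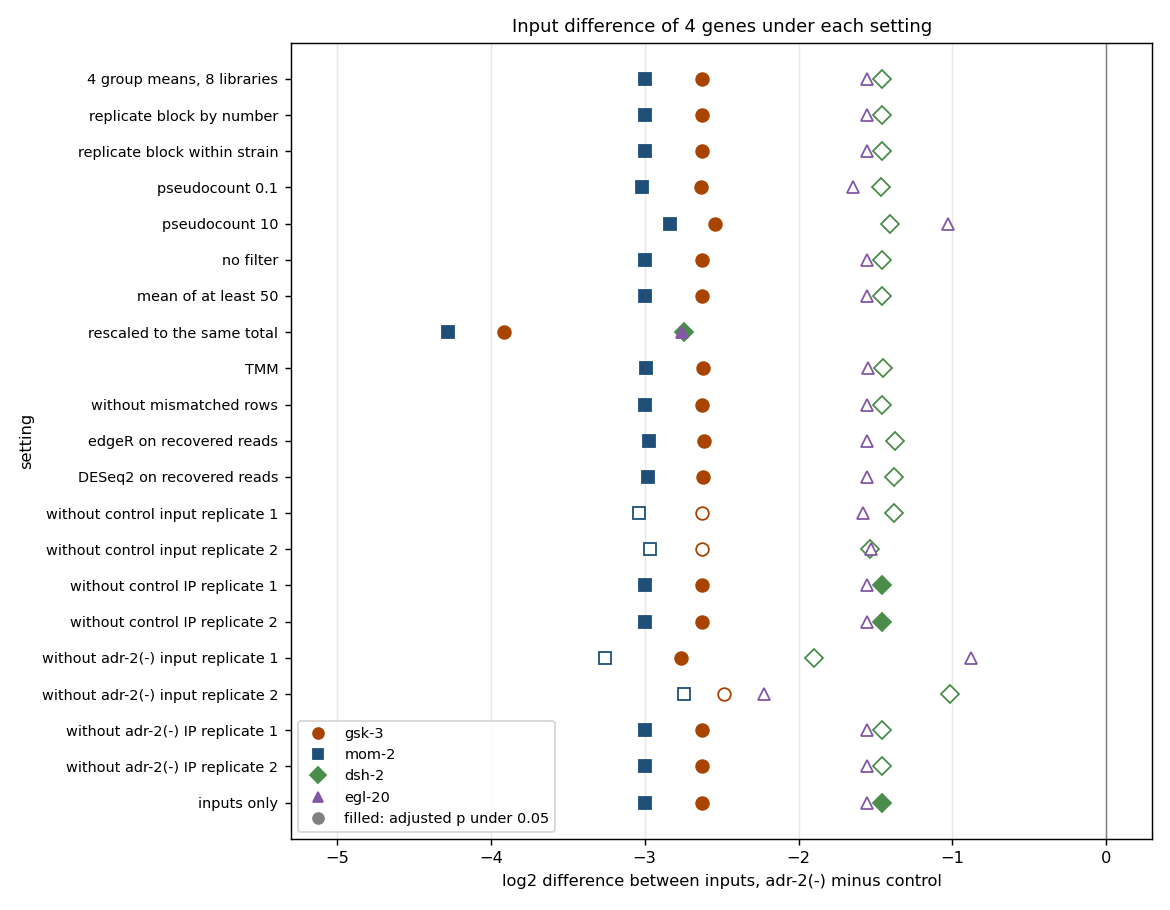
Log2 change in the inputs, adr-2(-) minus control, of gsk-3, mom-2, dsh-2 and egl-20 under each setting of the processing, filled where the adjusted p was under 0.05. All values lie below 0, and the filled markers of gsk-3 and mom-2 turn open only in settings that leave out an input library.

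The IPs were next compared between the strains, to ask whether the RNA recovered with ADR-1 differed when adr-2 was absent. Of the 10 genes, 0 were called in either direction by limma and 0 at an unadjusted p under 0.05, also by edgeR and DESeq2 for the adjusted count, against 1.53% of all genes called higher and 0% called lower. All 203 genes called higher lay in mismatched rows, and without these rows 0% were called in either direction. At the unadjusted threshold, 288 of all 13276 genes tested were higher and 12 lower. The log2 changes of the 10 ranged from -0.75 (cwn-2) to 0.90 (egl-20), with a median of -0.42 beside -0.04 over all genes tested, and 9 of the 10 were below 0. cwn-2, with the lowest of these changes, did not pass. It stood at 497 and 605 units in the control IPs and 381 and 279 in the adr-2(-) IPs (log2 change -0.75, 95% interval -1.56 to 0.07).

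Replicate IPs of the control differed more than any other replicates. The higher of the 2 control IPs exceeded the lower 2.47-fold at the median of the 10 genes and up to 5.16-fold in egl-20, against 1.47-fold at the median in the adr-2(-) IPs, 1.06-fold in control lysates and 1.34-fold in adr-2(-) lysates. In egl-20 the control IPs stood at 400 and 77.4 units and the adr-2(-) IPs at 388 and 280. In dsh-2 they stood at 227 and 588 against 332 and 186, and in mig-5 at 212 and 720 against 277 and 406. mom-2, dsh-2, mig-5 and cwn-2 were higher in control IP replicate 2, and the other 6 genes in control IP replicate 1. Between the IPs numbered 1 of the 2 strains, the log2 ratio of the 10 genes lay between -0.56 and 0.55, and between those numbered 2 it lay between -1.82 and 1.85.

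**Figure D3:**
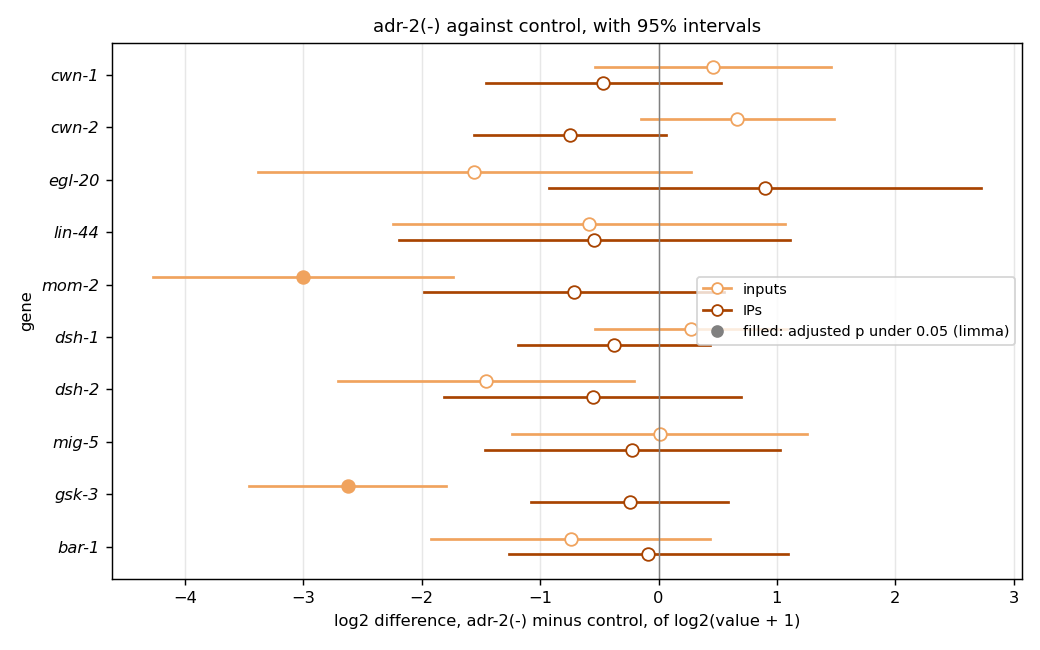
Log2 change of each gene, adr-2(-) minus control, in the inputs (light) and in the IPs (dark), with 95% intervals from limma and filled points where the adjusted p was under 0.05. Only the inputs of mom-2 (-3.0) and gsk-3 (-2.63) are filled, and the intervals of all 10 IP changes cross 0.

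IP was then set against input within each strain. In the control, 1 of the 10 genes was called higher in the IP by limma and 0 lower, against 0.535% of all genes called higher and 2.84% called lower. This gene, cwn-2, rose from 147 and 195 units to 497 and 605, a log2 change of 1.69 (SE 0.36, adjusted p = 0.0417 from limma). The call was lost without the mismatched rows (adjusted p = 0.0774), where 0% of all genes were called in either direction, and without any 1 of the 4 inputs (0.116 to 0.394). egl-20 had a larger log2 change of 2.35 (SE 0.80), with an adjusted p of 0.174, and cwn-1 one of 1.39 (SE 0.43, adjusted p = 0.142). cwn-1 moved from 196 and 145 units in control lysates to 498 and 395 in the IPs, without overlap. Of the markers in this comparison, 1 of 10 neuronal genes was called higher (median log2 change of the 10 neuronal genes 0.92) and 2 of 5 intestinal genes lower (-0.70), and their part was not tested. In lin-44, the control inputs of 45.1 and 26.4 units lay below the control IPs of 134 and 54.3, again without overlap (log2 change 1.28, adjusted p = 0.376). dsh-1 stood at 562 and 564 units in the inputs and 1314 and 854 in the IPs (log2 change 0.91, adjusted p = 0.223), and gsk-3 at 794 and 793 against 1371 and 860 (log2 change 0.45, adjusted p = 0.532). mom-2, dsh-2, mig-5 and bar-1 had control IPs on both sides of the inputs, with log2 changes from -0.68 to 0.02. Without control IP replicate 2, the log2 changes of egl-20, dsh-1 and mom-2 moved to 3.53, 1.22 and -1.50.

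In adr-2(-), 2 of the 10 genes were called higher in the IP and 0 lower, against 14.3% of all genes called higher and 10.5% called lower (12.7% and 10.4% without the mismatched rows, where gsk-3 and egl-20 were called too). gsk-3 stood at 141 and 116 units in the inputs and 1095 and 767 in the IPs, a log2 change of 2.83 (SE 0.36, 95% interval 2.00 to 3.66, adjusted p = 0.00226 from limma). egl-20 stood at 6.40 and 17.8 units in the inputs and 388 and 280 in the IPs, with an adjusted p of 0.00579. Since its inputs held 1 and 2 reads, its size is given by counting: from pooled reads the IP held 31.6 times the input level (95% exact interval 10.8 to 154). mom-2 stood at 76.8 and 53.4 units in the inputs and 240 and 163 in the IPs, without overlap, and did not pass (log2 change 1.61, SE 0.55, adjusted p = 0.0655 from limma). In the other 7 genes log2 changes ranged from -0.20 (mig-5) to 1.33 (lin-44), and none passed. The median of the 10 was 0.54, beside 0.23 over all genes tested. Cell type markers moved in the same comparison: 6 of 10 neuronal markers (median log2 change 1.79) and 2 of 5 muscle markers (1.24) were called higher, and 3 of 5 intestinal markers (-1.93) lower. The summed level of the neuronal markers was 7261 to 7437 units in adr-2(-) lysates and 11699 to 17313 in the IPs, that of the muscle markers 10835 to 13306 and 31889 to 41322, and that of the intestinal markers 180845 to 200802 and 17476 to 26980. Their part in the values of the 10 genes was not tested. Without adr-2(-) IP replicate 1, gsk-3 was the only gene of the 10 called, and egl-20 had an adjusted p of 0.0510. Without control input replicate 1 or 2, or without either adr-2(-) input, gsk-3 and egl-20 were both called.

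**Figure D4:**
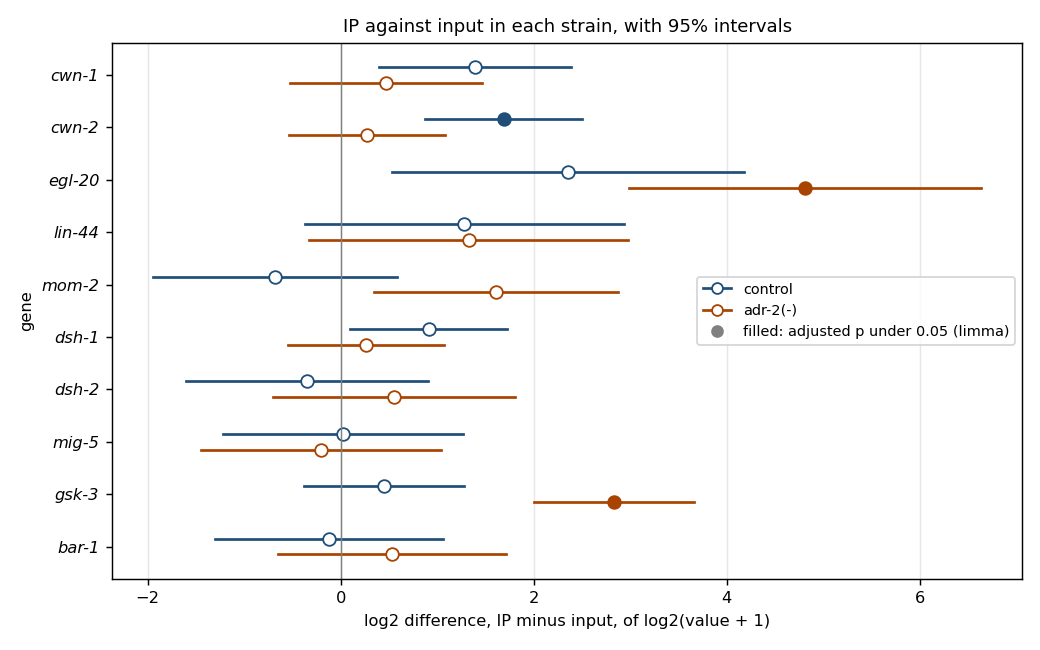
Log2 change of each gene, IP minus input, in the control and in adr-2(-), with 95% intervals from limma and filled points where the adjusted p was under 0.05. cwn-2 is filled in the control (1.69) and gsk-3 (2.83) and egl-20 (4.81) in adr-2(-).

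The ratio of ratios, IP over input in adr-2(-) divided by IP over input in the control, asks whether the share of an RNA recovered with ADR-1 changed between the strains. Of the 10 genes, 0 were called by limma, against 1.93% of all genes called higher and 0.158% called lower, and 0% in either direction without the mismatched rows. At an unadjusted p under 0.05 from limma, 2 of the 10 were higher and 1 lower, beside 1413 higher and 956 lower of all 13276 genes tested. For gsk-3 the log2 value was 2.38 (SE 0.51, 95% interval 1.21 to 3.56) with an adjusted p of 0.0621 from limma, 0.157 without the mismatched rows and 0.0209 by DESeq2 on the recovered reads. mom-2 had 2.29 (SE 0.78, adjusted p = 0.181), egl-20 2.45 (SE 1.13, adjusted p = 0.297) and cwn-2 -1.41 (SE 0.50, adjusted p = 0.197). In gsk-3 and mom-2 the 2 terms of this ratio differed in size: the input terms were -2.63 and -3.0 and the IP terms -0.24 and -0.71. The 6 other genes had values between -0.93 (cwn-1) and 0.90 (dsh-2). Leaving out a control IP moved the log2 values. Without replicate 1, gsk-3 had 2.72, egl-20 3.63 and mom-2 1.47. Without replicate 2, gsk-3 had 2.05, egl-20 1.28 and mom-2 3.11.

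Per kilobase of exon, which allows levels of different genes to be compared, the order of the genes was not the same in the 4 groups. In the control inputs it ran from gsk-3 at 365 ± 0.32 (SD, n = 2) and mom-2 at 339 ± 11 (SD, n = 2) units per kb down to lin-44 at 25.9 ± 9.63 (SD, n = 2) and egl-20 at 16.7 ± 0.41 (SD, n = 2), and only dsh-1 with cwn-2, and cwn-2 with cwn-1, overlapped their neighbours. In the adr-2(-) inputs cwn-2 led at 189 ± 11.6 (SD, n = 2), followed by mig-5 at 176 ± 2.45 (SD, n = 2) and dsh-1 at 154 ± 1.33 (SD, n = 2), with egl-20 last at 6.00 ± 4.00 (SD, n = 2). In both sets of IPs gsk-3 led and cwn-2 and cwn-1 followed, at 514 ± 166, 386 ± 53.5 and 259 ± 42.2 (SD, n = 2) units per kb in the control and 429 ± 107, 231 ± 50.3 and 198 ± 94.5 (SD, n = 2) in adr-2(-). Most neighbours in the IPs overlapped: in the control IPs cwn-2 and cwn-1 were the only neighbours apart, and in the adr-2(-) IPs gsk-3 and cwn-2, and dsh-2 and bar-1.

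Since ADR-1 binds double-stranded RNA, the genes were also searched in WBcel235 for inverted repeats, here a run of 20 bases whose reverse complement lies in the same gene. Among the 10 genes gsk-3 was the only 1 with such a repeat, whereas 22% of 12917 protein-coding genes tested had 1. The length searched differed between genes: gsk-3 spans 6387 bases, beside a median of 2604 in the protein-coding genes tested, and dsh-1, without a repeat, spans 10985. In gsk-3 the repeats formed 5 perfect stretches of 23 to 69 base pairs, 234 in sum, between positions 12819536 and 12820331 of chromosome I. All lie in intron sequence, and the RNA sequenced was poly(A)-selected. The finding describes the sequence and says nothing of pairing in these animals. The table lists the noncoding gene Y18D10A.29, which overlaps gsk-3 on the same strand, at 0 in all 8 libraries.

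The genes with the most similar profile over the 8 libraries, among 9964 genes with a mean of at least 50, are given as a description, since the groups and the depth of the libraries are shared by all of them. For gsk-3 these were the Ras gene let-60, the homeodomain-interacting kinase gene hpk-1 and the Gq protein gene egl-30, with a Pearson r between 0.995 and 0.997 on the log2 scale over 8 libraries. let-60 stood at 719 and 701 units in control lysates and at 199 and 169 in adr-2(-) lysates. For dsh-2 they were div-1 and orc-1, which encode proteins of DNA replication, and B0261.7, with r between 0.979 and 0.993. For cwn-1 they were the homeobox gene ceh-34, ZK381.2 and F18A11.2, with r between 0.977 and 0.991.

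The rest of the pathway was described through a list of 27 other genes: 6 receptors, 4 genes of ligand secretion, 4 of the destruction complex, 6 of the β-catenins and the nuclear step, 3 of planar polarity, 1 secreted inhibitor and 3 Hox targets. pop-1, the TCF transcription factor, was listed at 0 in all 8 libraries and was not tested, which left 26. The table also lists adr-1, which the transgene expresses, at 0 in all 8 libraries, so neither 0 is read as a level. In the inputs 7 of the 26 were lower in adr-2(-) and 0 higher, with a median log2 change of -1.29, beside the 9.37% called lower and the median of 0.01 over all genes. Without the mismatched rows 6 of 25 were lower, with a median of -1.20. The kinase genes kin-19 (casein kinase 1 α), lit-1 (Nemo-like kinase) and mom-4 (MAP3K) were among them. kin-19 stood at 2590 and 2598 units in control lysates and 724 and 810 in adr-2(-) lysates (log2 change -1.76, SE 0.29, adjusted p = 0.0102 from limma). lit-1 stood at 761 and 735 against 128 and 142.5 (log2 change -2.46, SE 0.55), and mom-4 at 280 and 306 against 96.05 and 53.4 (log2 change -2.01, SE 0.41). The retromer genes vps-26 and vps-35, which recycle the Wnt carrier MIG-14, fell by 2.81 and 1.71 on the log2 scale, and the Frizzled gene cfz-2 by 1.75. apr-1, the APC gene, stood at 502 and 522 against 288 and 214, and its log2 change of -1.04 did not pass (adjusted p = 0.117 without the mismatched rows). Without adr-2(-) input replicate 2, or without either control input, 11 and 0 genes of the whole table were called in the inputs.

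**Figure D5:**
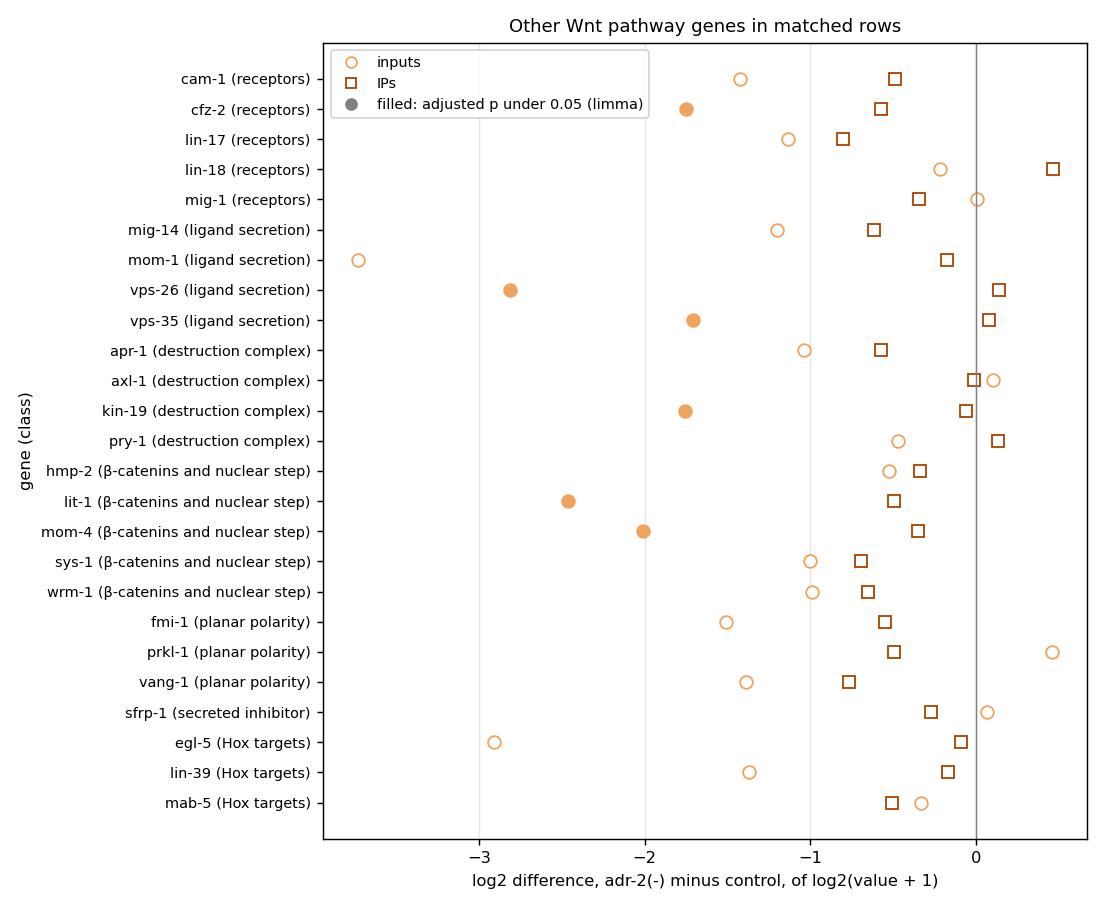
Log2 change, adr-2(-) minus control, in the inputs (circles) and IPs (squares) of the 25 other Wnt pathway genes in matched rows, grouped by class and filled where the adjusted p from limma was under 0.05. The 6 filled circles lie between -2.81 (vps-26) and -1.71 (vps-35), and 0 squares are filled.

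Between the IPs, 0 of the 25 genes in matched rows were called, with log2 changes between -0.80 and 0.46 and a median of -0.35. kin-19 stood at 2645 and 2123 units in the control IPs and 2466 and 2097 in the adr-2(-) IPs. In adr-2(-), 13 of the 26 were higher in the IP than in the input and 0 lower (12 of 25 without the mismatched rows), beside 14.3% of all genes called higher and 10.5% lower (12.7% and 10.4% without the mismatched rows). The median log2 change was 1.57, beside 0.23 over all genes. By size of change these were led by egl-5, mom-1 and lit-1. egl-5 and mom-1 rest on 3 and 2 reads in adr-2(-) lysates together, which gave counting intervals for the IP over the input of 3.45 to 49.0 and 1.61 to 48.5. lit-1 stood at 2269 and 872 units in the adr-2(-) IPs (log2 change over input 3.37, SE 0.55), kin-19 had 1.57 (SE 0.29), and the planar polarity cadherin gene fmi-1 had 2.73 (SE 0.75). In the control, 0 of the 25 genes in matched rows were called in either direction for IP against input, with 21 of 25 above 0.

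mom-5, a Frizzled receptor gene, was the only other pathway gene in a mismatched row. It was listed at 0 in both control IPs, at 608 and 727 units in control lysates, 57.6 and 62.3 in adr-2(-) lysates and 435 and 350 in the adr-2(-) IPs. The mean of these 8 values is 279.9, while the authors' deposited mean for the gene is 415. Its values in the control IPs therefore cannot be read as levels, and only its inputs are compared here (log2 change -3.45, SE 0.46, adjusted p = 0.00838 from limma).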

How the data were processed

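RIP-seq libraries of 2 strains (IP and input, 2 biological replicates each) were analysed from the deposited table. Per the study's methods, the authors used STAR to align single-end reads of a stranded kit to ce11 (WormBase WS275), retained uniquely placed reads, assigned them to genes by strand with featureCounts and scaled them with DESeq2. The submitters' processing notes name STAR 2.7.8a, whereas the methods name another release of it. The deposited signal is the normalised read count, the count divided by a size factor of the library. The authors' columns of log2 ratios, a test statistic, p-values and adjusted p-values were not used.

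Gene identifiers were matched to Ensembl annotation of WBcel235 (46892 of 46916 named). Reads were recovered from the step of each library, and 100% of values above 0 in matched rows came out whole within 0.006 units. Rows were called matched where the mean of the 8 values equalled the authors' deposited mean within 0.02 units or 0.1%. A linear model with a mean for each of the 4 groups was fitted with limma 3.58.1 (R 4.3.3; lmFit, then eBayes with trend) to log2(value + 1) of the 8 libraries. Genes averaging 10 or more were tested, and p-values were adjusted by Benjamini-Hochberg over all 13276 genes. Changes are on this scale, which understates low genes. edgeR 4.0.16 and DESeq2 1.42.0 on recovered reads, other pseudocounts, filters, scalings, blocks and the removal of each library were alternatives. The fits were tested on simulated data. Tables were handled in Python 3.11.15 with pandas 2.3.3 and scipy 1.17.1. Genome stretches came from the RefSeq assembly of WBcel235.

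The 10 genes, the lists of other pathway genes and the markers were chosen with earlier results of these data known. Named were all 10 genes and, of the 27 others, apr-1, kin-19 and up to 10 called genes with the largest change. Replicates share a strain, and the labels say no more than that they are biological, so p-values measure the spread between these samples.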

Additional observations from a re-analysis of the deposited data

Results flagged for a closer look

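Of the 26 other pathway genes tested, 2 had a ratio of ratios between the strains past the threshold of limma, beside 1.93% of all genes called higher and 0.158% lower, and 0% in either direction without the mismatched rows. vps-26, of the retromer, reached 2.95 on the log2 scale (SE 0.53, with an adjusted p of 0.0271). Its lysates held 283 and 290 units in the control and 44.8 and 35.6 (7 and 4 reads) in adr-2(-), and its IPs 212 and 168 against 202 and 213. The adjusted p was 0.157 without the mismatched rows and 0.0410 by edgeR on the recovered reads, and it was under the threshold in 11 of 19 alternatives. mom-5 reached 12.06, which is set by the control IPs listed at 0 in a mismatched row and is no measure of a change.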

How the results depend on the processing

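Leaving out each library aside, 525 of 560 values for the 10 genes kept their direction and their side of the threshold. gsk-3 and mom-2 were called lower in the inputs under 12 of 12 such alternatives that give a value per gene. Of the 10 genes, 5 were called lower in the inputs after rescaling to the same total (bar-1, dsh-2, egl-20, gsk-3 and mom-2; 32.2% of all genes were). At the study's stricter threshold (adjusted p under 0.001 and a log2 change of at least 1), the limma fit called 0 in the inputs. The study set this threshold on the ratio of ratios by DESeq2. By DESeq2 on the recovered reads, gsk-3 (log2 change -2.62, adjusted p = 4.82e-05) and mom-2 (-2.98, 5.39e-04) passed it in the inputs. A fit on the 4 inputs alone, which was chosen after seeing the data, called 3 lower, with dsh-2 added (adjusted p = 0.00532 from limma), and 1 higher, cwn-2 (0.0427), where 23.2% of all genes were called lower and 23.3% higher. For IP against input in the control, the count of 1 became 0 with the replicate block within strain (cwn-2, adjusted p = 0.0833), without a filter, with the same total, without mismatched rows, by edgeR and at the stricter threshold, and 2 by DESeq2 (cwn-2 and egl-20), which called 4.81% of all genes higher. In adr-2(-), 9 were called higher with the same total, as were 36.8% of all genes, and 0 at the stricter threshold in the limma fit. By DESeq2, gsk-3 (log2 change 2.84, adjusted p = 2.39e-06) and egl-20 (4.86, 1.57e-04) passed it, the latter on inputs of 1 and 2 reads. In the ratio of ratios, 3 were called higher with the same total (egl-20, gsk-3 and mom-2; 13.5% of all genes) and 1 by DESeq2 (gsk-3; 3.01% of all genes). The same total moved the median of all genes from 0.23 to 1.39 for IP against input in adr-2(-) and from 0.02 to 1.41 in the ratio of ratios.

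Signs turned with the same total in the inputs of cwn-1 (-0.83), cwn-2 (-0.62), dsh-1 (-1.02) and mig-5 (-1.28), the IPs of bar-1 (0.0465), IP against input of mig-5 in the control (-0.22) and in adr-2(-) (0.97), and the ratio of ratios of cwn-1 (0.50), cwn-2 (0.0071), dsh-1 (0.78) and mig-5 (1.20). They also turned for lin-44 with a pseudocount of 10 (ratio of ratios -0.0187) and for bar-1 by edgeR (IP against input in the control 0.024). The cause was not tested.

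When each library was left out in turn, the number of genes called ranged from 0 to 3 (lower, inputs), 0 to 3 (higher) and 0 to 1 (lower) for IP against input in the control, 1 to 3 (higher) for IP against input in adr-2(-), and 0 to 2 (higher) in the ratio of ratios. Signs turned in 27 of 400 such values. Between the IPs, log2 changes ranged from -0.97 to 0.0409 in cwn-1, -0.28 to 2.07 in egl-20, -1.31 to 0.23 in lin-44, -1.53 to 0.11 in mom-2, -1.24 to 0.13 in dsh-2, -1.10 to 0.66 in mig-5, -0.58 to 0.0913 in gsk-3 and -0.74 to 0.57 in bar-1. For IP against input in the control they ranged from -1.50 to 0.14 in mom-2, -1.04 to 0.33 in dsh-2, -0.86 to 0.90 in mig-5 and -0.78 to 0.53 in bar-1. In adr-2(-) they ranged from -0.0386 to 0.97 in cwn-1, -0.0414 to 0.56 in dsh-1 and -0.48 to 0.0713 in mig-5. In the inputs mig-5 ranged from -0.0119 to 0.0292, and in the ratio of ratios lin-44 from -0.73 to 0.82 and mig-5 from -1.11 to 0.65.

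Replicate numbers were not taken to pair the libraries. Deviations of same-numbered libraries correlated at 0.46 between the IPs of the strains and between -0.01 and 0.04 in the other pairs of groups. A replicate block by number left 2 genes lower in the inputs, 0 called in the IPs, 1 and 2 higher for IP against input, and 0 called in the ratio of ratios, and changed no call among the 10. The few reads behind the values of the adr-2(-) inputs limit every comparison that uses them: 3 reads were worth up to 26.7 units.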
